A study of Homo sapiens with 12 samples.

Results

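Voltage-gated sodium and calcium channels are the pores that carry the inward currents of nerve and muscle cells. The set described here holds the 39 genes of the deposited count table whose symbols name their pore-forming and auxiliary subunits, out of 59087 features. It was chosen by symbol alone and comprises 9 sodium channel alpha subunits, 4 sodium channel beta subunits, 10 calcium channel alpha1 subunits (CACNA1A to CACNA1I and CACNA1S), 4 alpha2delta subunits (CACNA2D1 to CACNA2D4), 4 calcium channel beta subunits (CACNB1 to CACNB4) and 8 gamma subunits (CACNG1 to CACNG8). Of the 39 genes, 27 passed a filter on low counts and were tested.

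Poly(A) RNA was sequenced from SH-SY5Y cells, a line from a human neuroblastoma, a tumour of the sympathetic nervous system. FMR1-knockout (KO) cells were set against wild-type (WT) cells, and FMR1 encodes FMRP, an RNA-binding protein of translating ribosomes whose loss underlies fragile X syndrome. The KO libraries came from 3 separately made lines, numbered 1 to 3, each kept for 2 weeks in heavy and in light SILAC medium, which gave 3 KO libraries in heavy and 3 in light medium. WT cells gave 3 libraries in heavy and 3 in light medium, 12 libraries in all, and the labels do not tie the WT numbers to separate derivations. The media differ in the isotopes of lysine and arginine, both contain dialysed serum, and neither genotype had any other treatment. A KO line is a single derivation, so a line's loss of FMR1 and its derivation cannot be told apart. WT libraries may differ from each other only as cultures do, and p-values measure the spread between these libraries.

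The alpha and alpha1 subunits form the ion pore and its voltage sensor. Sodium channel beta subunits are single-pass adhesion-like proteins that tune gating and surface delivery. Calcium channel beta subunits bind the alpha1 subunit inside the cell and bring it to the membrane. The alpha2delta subunits do so from outside, and some of them, not all, bind gabapentin. Most gamma subunits act in brain as auxiliary proteins of AMPA-type glutamate receptors. In sympathetic neurons, SCN9A carries much of the sodium current and the N-type channel of CACNA1B carries much of the calcium current that triggers noradrenaline release.

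Libraries held 25935152 to 40257027 counts, so 1 count was worth between 0.0247 and 0.0386 CPM, the count scaled to the normalised library size. FMR1 itself stood at 22.4 CPM in line 1 heavy and 11.4 CPM in line 1 light, at 12.8 and 11.5 CPM in line 2, and at 7.19 and 9.06 CPM in line 3, against 35.9 to 42.0 CPM in the 6 WT libraries. The library labelled KO line 1, heavy medium, thus kept the most FMR1 mRNA of the KO libraries, and results on line 1 are also given without it. The 13 adrenergic neuroblast markers had a summed level of 7958 to 10401 CPM in KO and 9966 to 10925 CPM in WT, carried largely by genes such as CHGA, STMN2 and DBH, while TH, the first enzyme of noradrenaline synthesis, averaged 0.558 CPM in KO and 0.616 CPM in WT. The 12 mesenchymal markers had a summed level of 239 to 362 CPM in KO and 389 to 414 CPM in WT. TWIST1 alone carried most of it, at 252 CPM in KO and 335 CPM in WT on average, and PRRX1 was at 0 throughout. In bulk RNA, fewer cells that express a gene and less RNA per cell cannot be told apart.

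Promoter sequences for 25 of the 39 genes were found in a RefSeq table (GRCh38.p14; 300 bases, 250 before to 50 after 1 annotated start per gene). Of these, 5 are shown. They belong to 3 neighbouring sodium channel genes that behaved differently and to 2 calcium channel alpha1 genes that were higher in lines 1 and 2. The latter are CACNA1B (N type) and CACNA1D (L type). CACNA1C, an L-type gene also higher in both lines, has a window with 6 GC boxes (GGGCGG) that is not shown. Capitals mark matches, on either strand, to a TATA box (TATAAA) or a GC box (GGGCGG). The SCN2A window (chr2:165240810-165241109, plus strand, GC content 33.3%) and the CACNA1D window (chr3:53494361-53494660, plus strand, GC content 83.0%) lie inside the GENCODE gene and are 1 of several possible starts. The SCN9A window is chr2:166375895-166376194 (minus strand, GC content 73.3%), the SCN1A window is chr2:166149112-166149411 (minus strand, GC content 46.3%) and the CACNA1B window is chr9:137877532-137877831 (plus strand, GC content 85.3%).
SCN2A: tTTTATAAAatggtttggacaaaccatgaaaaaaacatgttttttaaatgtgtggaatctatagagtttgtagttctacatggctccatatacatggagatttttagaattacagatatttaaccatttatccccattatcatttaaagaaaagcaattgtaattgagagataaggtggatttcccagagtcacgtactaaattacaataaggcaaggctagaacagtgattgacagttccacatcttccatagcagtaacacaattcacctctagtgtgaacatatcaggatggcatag
SCN9A: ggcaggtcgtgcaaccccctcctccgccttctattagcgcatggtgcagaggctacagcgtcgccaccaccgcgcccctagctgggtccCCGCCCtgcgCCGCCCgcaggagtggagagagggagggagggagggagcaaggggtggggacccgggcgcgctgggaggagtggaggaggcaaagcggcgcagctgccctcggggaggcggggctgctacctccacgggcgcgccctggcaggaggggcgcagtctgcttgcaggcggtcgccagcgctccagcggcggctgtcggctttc
SCN1A: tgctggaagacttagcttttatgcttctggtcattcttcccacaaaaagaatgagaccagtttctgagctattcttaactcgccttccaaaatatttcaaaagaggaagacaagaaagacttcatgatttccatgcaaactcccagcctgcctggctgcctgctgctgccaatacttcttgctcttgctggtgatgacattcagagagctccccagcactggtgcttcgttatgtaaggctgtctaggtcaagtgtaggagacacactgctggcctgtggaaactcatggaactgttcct
CACNA1B: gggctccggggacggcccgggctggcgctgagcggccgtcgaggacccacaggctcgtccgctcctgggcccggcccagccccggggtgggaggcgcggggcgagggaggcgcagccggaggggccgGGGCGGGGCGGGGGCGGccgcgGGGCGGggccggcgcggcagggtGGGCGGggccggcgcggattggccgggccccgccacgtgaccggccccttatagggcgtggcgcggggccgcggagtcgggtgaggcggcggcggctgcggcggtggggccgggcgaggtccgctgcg
CACNA1D: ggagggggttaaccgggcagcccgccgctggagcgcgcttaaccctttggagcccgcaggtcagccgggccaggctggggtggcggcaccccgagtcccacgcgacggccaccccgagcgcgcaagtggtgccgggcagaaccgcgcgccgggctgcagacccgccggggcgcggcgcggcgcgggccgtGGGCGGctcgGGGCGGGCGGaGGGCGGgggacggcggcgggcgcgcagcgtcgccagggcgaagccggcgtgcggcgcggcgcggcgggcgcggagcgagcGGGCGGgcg
The SCN2A window held 2 overlapping TATA-box matches, on opposite strands, and no GC box, the SCN9A window 2 GC boxes, the CACNA1B and CACNA1D windows 5 GC boxes each, some of them overlapping, and the SCN1A window neither. Over all 35116 promoters of the table, 45% held the GC box and 11.5% the TATA box, and the median GC content was 58.7%. Among the 25 channel promoters, 17 held the GC box, and SCN8A, whose mRNA did not pass any test below, had the most with 10. Single matches to the left part (CAGCACC) or right part (GGACAGC) of the element bound by the repressor REST were in the CACNG3 and CACNB4 windows, against 7.75% and 6.03% of all promoters. The cAMP response element TGACGTCA and the paired TAAT site of homeodomain factors were in none of the channel windows, against 1.85% and 0.365% of all promoters. CATCTG, an E-box, was in 6 of 25 against 14.7% of all.

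Levels were first compared between genes as CPM per kb of exon, to bring long and short mRNAs nearer to 1 scale. The divisor joins the exons of all annotated transcripts and can exceed the length of any single mRNA. It was 23695 bases for SCN2A and 9840 for SCN3A, whose longest transcripts held 11627 and 9074 different 50-base words. Ranks and shares on this scale therefore depend in part on the annotation. The most abundant subunit mRNA in this cell line was CACNG4, an AMPA-receptor auxiliary subunit, at 237 CPM per kb in WT (226 to 248 over 6 libraries), and it supplied 87.4% of the summed gamma level. CACNA2D2 (28.6 to 31.9) and CACNG7 (26.5 to 32.9) came next and overlapped each other, followed by CACNA2D1 (12.3 to 15.3) and CACNB3 (7.96 to 9.04), which did not overlap. SCN3B (3.94 to 4.64), CACNA1B (3.83 to 4.41) and CACNB1 (3.26 to 4.07) formed a group in which neighbours overlapped. SCN3A, an embryonic and neonatal brain channel in rodents, was the leading sodium pore with 2.27 CPM per kb (2.12 to 2.49) and 36.4% of the summed alpha level.

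Below SCN3A and CACNG8 (1.75 to 2.10), the genes CACNG2, SCN8A and CACNA1G lay between 1.13 and 1.6 CPM per kb in WT, each overlapping its neighbour. SCN2A (0.672 to 0.780) stood apart from CACNA1C (0.537 to 0.641), which overlapped SCN9A (0.435 to 0.614). The other 10 tested genes had means of 0.0554 to 0.360 CPM per kb. Within their classes CACNA1B made up 67.3% of the alpha1 level, CACNA2D2 68.8% of the alpha2delta level, CACNB3 68.2% of the beta level and SCN3B 92.1% of the sodium channel beta level. The summed level of the 9 sodium channel alpha genes averaged 8.93 ± 2.39 CPM per kb in KO and 6.24 ± 0.258 in WT (SD, n = 6 libraries each), and that of the 10 calcium channel alpha1 genes 7.60 ± 1.56 in KO and 6.14 ± 0.321 in WT.

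**Figure D1:**
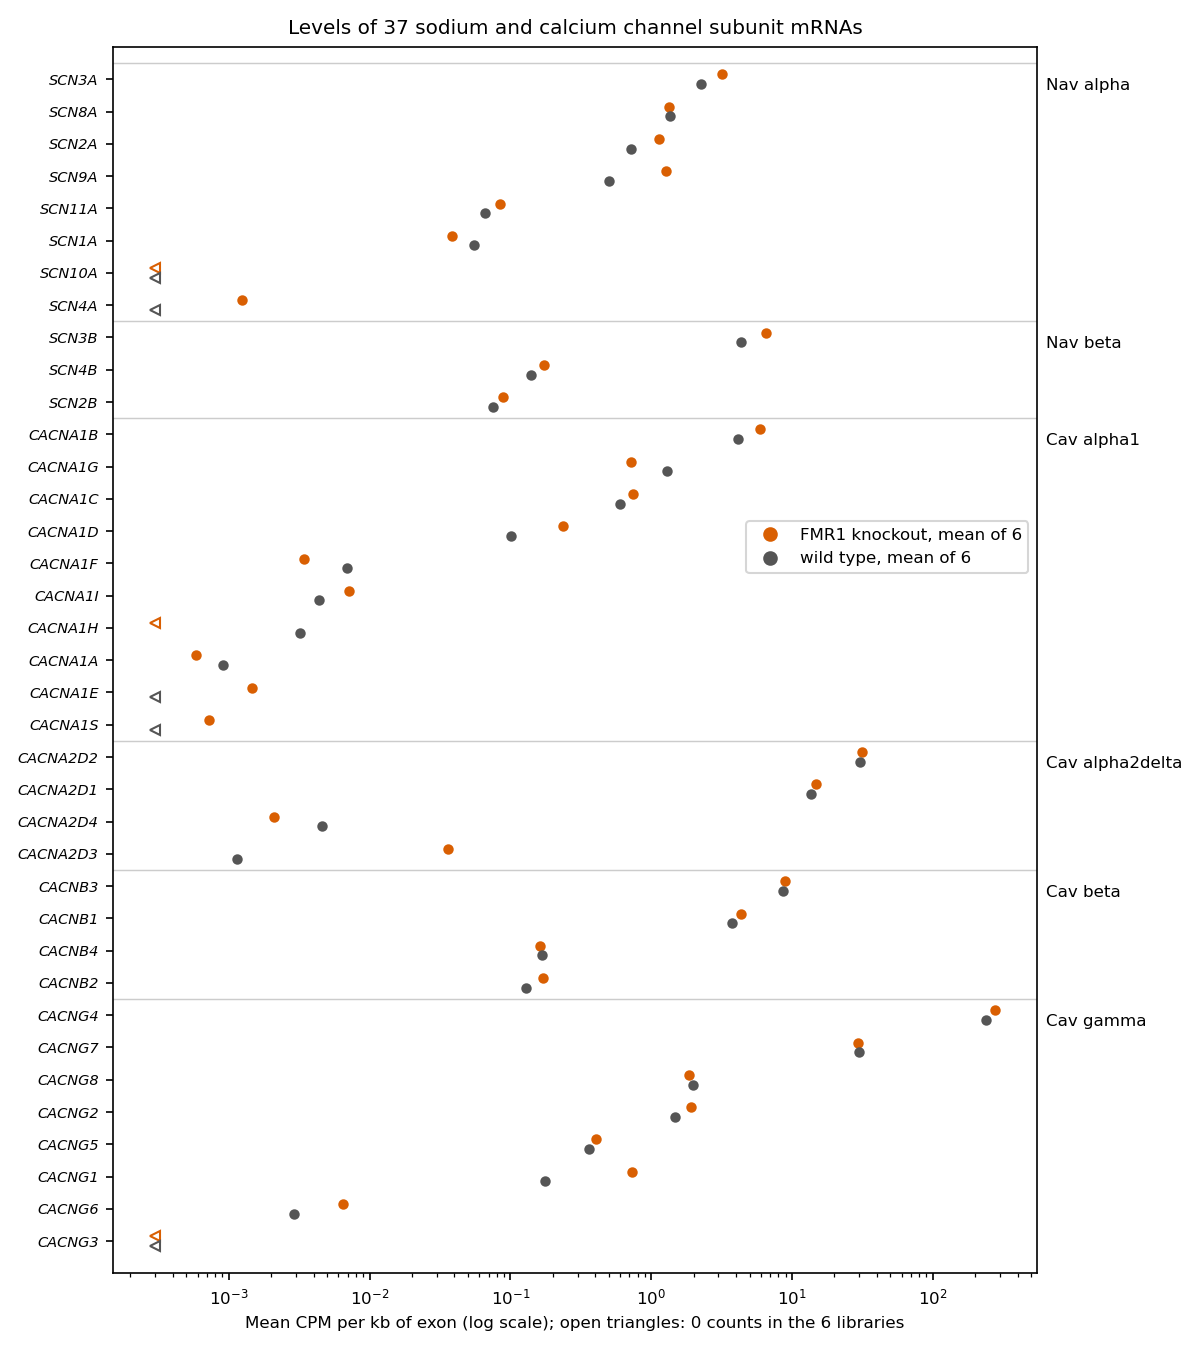
Mean level of 37 subunit mRNAs in CPM per kb of exon on a log axis, with FMR1-KO libraries in orange above WT libraries in grey (mean of 6 each) and genes grouped by subunit class. CACNG4 lies far to the right at 276 CPM per kb in KO and 237 in WT, and open triangles mark genes with 0 counts in a genotype.

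The remaining 12 genes had too few counts to be tested. SCN10A, a pore of nociceptors, and CACNG3 had 0 counts in every library, which at 3 counts over the summed depth allows up to 0.0151 CPM in KO and 0.0152 CPM in WT (counting error only). Muscle pores SCN4A and CACNA1S had 2 and 1 counts in KO and 0 in WT. CACNA1A, the P/Q-type pore of central synapses, had 5 counts in KO and 8 in WT. Other pores in this range were CACNA1E with 5 counts in KO and 0 in WT, CACNA1F with 5 and 9, CACNA1H with 0 and 6, and CACNA1I with 15 and 9, and the auxiliary genes CACNA2D4 with 3 and 7 and CACNG6 with 2 and 1. CACNA2D3 differed from these in that its 33 KO counts came from lines 1 and 2 only, with 5 and 3 counts in line 1 heavy and light, 18 and 7 in line 2 and 0 and 0 in line 3, against 1 count in all WT libraries.

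Over both media, KO libraries were compared with WT libraries in a quasi-likelihood model across 16704 genes, and a gene was called at an adjusted p below 0.05. Of the 27 tested channel genes, 12 were higher in KO, where 15% of all tested genes were, and 2 were lower, where 9.78% of all tested genes were. Among the higher genes were SCN2A, SCN3A, SCN9A, SCN3B, CACNA1B, CACNA1C, CACNA1D, CACNB1, CACNG1, CACNG2 and CACNG4, and the lower ones were SCN1A and CACNA1G. The median log2 fold change was 0.23 over the 27 genes and 0.00 over all tested genes. The other 13 tested genes included CACNG8 with a log2 fold change of -0.10 and CACNB2 with 0.40.

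That comparison counts each line as a pair of independent libraries. When the counts of each line, and of each WT number, were summed over media (3 against 3), CACNG1 and CACNA1G alone stayed past the threshold (edgeR adjusted p = 0.0259 and 0.0353), while the other 12 had adjusted p between 0.0820 and 0.193 with almost the same fold changes. Calls also dropped when single libraries were left out, to 6 without line 2 heavy, 6 without line 1 light, 5 without line 2 light, 5, 5 and 8 without WT heavy 1, 2 and 3, and 5, 6 and 6 without WT light 1, 2 and 3. Shares of all tested genes called in the summed fit and in these fits are not given here. The drops therefore cannot be read as particular to the channel genes. CACNG1, CACNG4, SCN3B and CACNA1G were among the genes called in all 12 fits that left out a library. In each of them the 6 KO libraries all lay on one side of all 6 WT libraries, CACNA1G below and the others above, an arrangement found for 6.54% (above) and 4% (below) of all tested genes. CACNG1 passed the low-count filter through its KO libraries, so its place among these genes is not independent of that filter.

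Line by line, the channel genes were shifted in lines 1 and 2 and hardly in line 3. Against WT, line 1 had 13 of 27 genes higher (15.4% of all tested genes were higher) and 1 lower (12.8% of all), and line 2 had 14 higher (22.9% of all) and 2 lower (20.1% of all). In line 3, 1 gene was higher (3.27% of all) and 2 were lower (1.73% of all). The median log2 fold change of the 27 genes was 0.21 in line 1, 0.50 in line 2 and 0.03 in line 3, while the median over all tested genes was 0.00 in each. A test of equality of the 3 lines called 11 of the 27 genes, against 23.2% of all tested genes. Among them were SCN2A, SCN3A, SCN9A, SCN3B, CACNA1B, CACNA1C, CACNA1D, CACNA2D1, CACNA2D2 and CACNB2, and all 11 were called whichever library was left out.

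**Figure D2:**
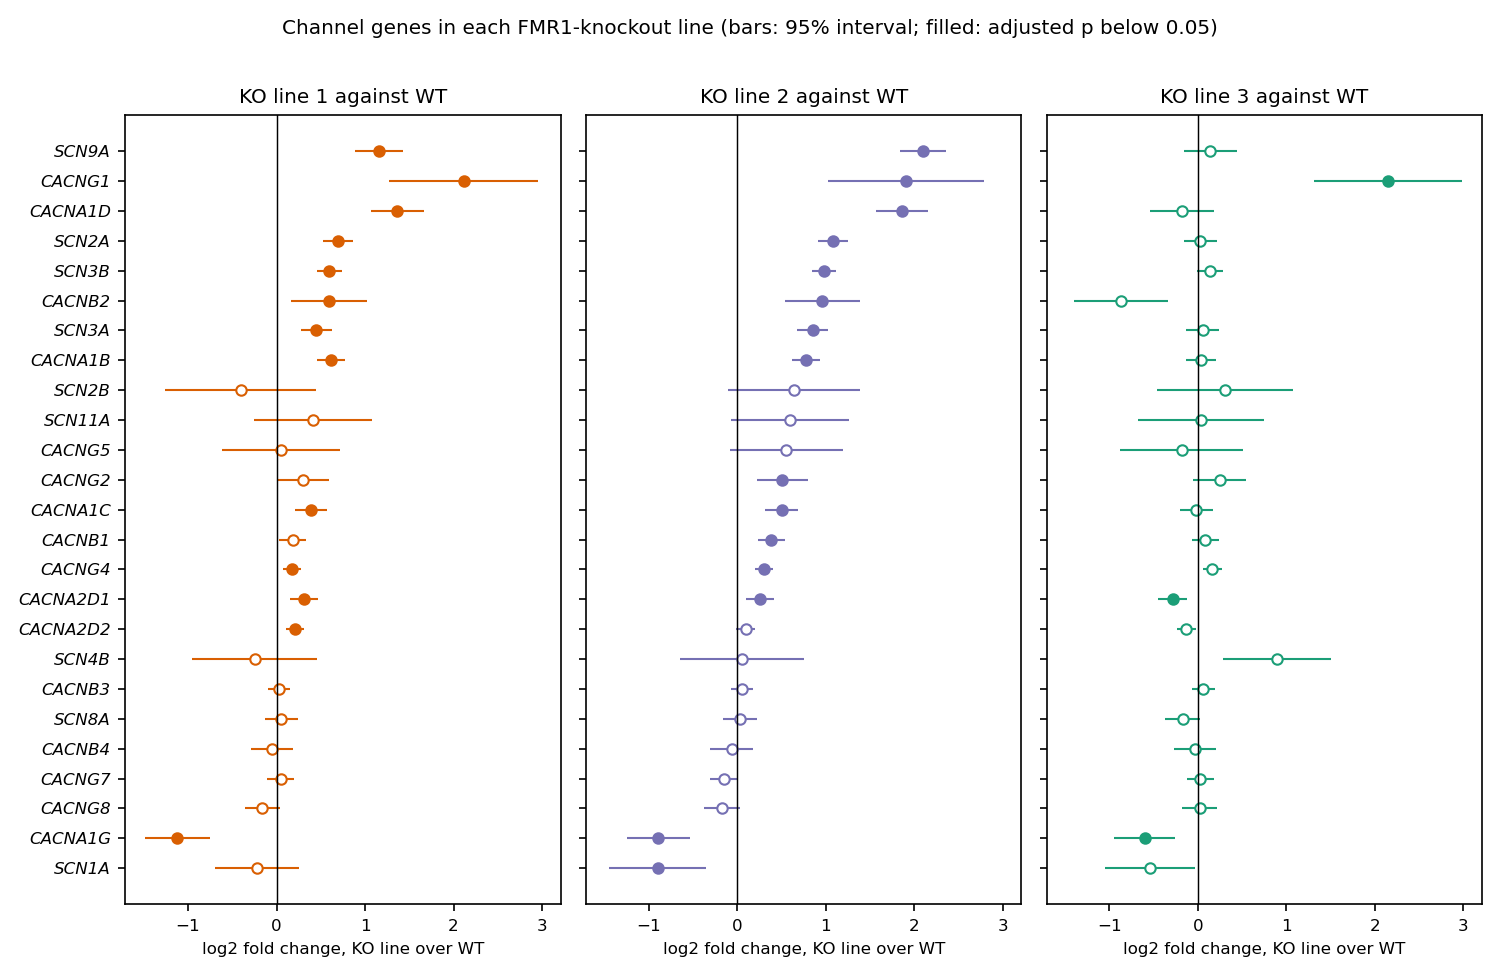
Log2 fold change of 25 tested channel genes in KO lines 1, 2 and 3 over WT, with 95% intervals as bars and filled points where the edgeR adjusted p was below 0.05. The order, set by line 2, runs from SCN9A (2.10) at the top to SCN1A (-0.90) at the bottom, and most points of line 3 lie near 0 apart from CACNG1 (2.15).

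Single libraries also bear on the line counts. Without its light library, line 1 kept 6 calls (CACNA1B, CACNA1D, CACNA1G, SCN2A, SCN3B and SCN9A), and without its heavy library 14, with CACNB2 lost and CACNG2 gained. Without its heavy library line 2 kept 12 calls, losing CACNA2D1, CACNB2, CACNG1 and SCN1A, and without its light library 15, losing CACNG2. Line 3 had 0 calls without its light library and 1 (CACNG1) without its heavy library, without WT light 2 or without WT light 3. It had 5 without line 1 heavy or without line 1 light, where CACNB2 (lower) and CACNG4 (higher) joined. No setting turned the direction of a called gene. Shares of all tested genes called in these fits are not given here. Changes in the counts therefore cannot be read as particular to the channel genes.

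Among sodium channel pores, SCN9A differed most. It encodes the pore of sympathetic and nociceptive neurons, mutated in inherited pain disorders. In heavy and then light medium it had 12.5 and 18.5 CPM in line 1, 30.3 and 28.8 CPM in line 2 and 8.40 and 6.90 CPM in line 3, against a lowest, median and highest WT value of 5.98, 6.79 and 8.43 CPM. All 4 libraries of lines 1 and 2 lay above the WT range, and both libraries of line 3 lay within it. The log2 fold change over WT was 1.16 (SE 0.13, edgeR adjusted p = 3.50e-06) in line 1, 2.10 (SE 0.12, adjusted p = 4.63e-10) in line 2 and 0.14 (SE 0.14, adjusted p = 0.647) in line 3, and the lines differed (edgeR adjusted p = 7.70e-07).

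SCN2A and SCN3A, pores of brain neurons that are transcribed away from each other from adjacent genes, followed the same order of lines. SCN2A had 25.6 and 29.9 CPM in line 1 (heavy, then light), 39 and 33.2 CPM in line 2 and 16.2 and 18.8 CPM in line 3, against 15.9, 17 and 18.5 CPM as the lowest, median and highest WT values. Its log2 fold change was 0.70 in line 1 (edgeR adjusted p = 5.31e-06), 1.08 in line 2 (adjusted p = 6.47e-09) and 0.03 in line 3 (adjusted p = 0.895). For SCN3A, line 1 had 26.9 and 34.2 CPM, line 2 had 41.2 and 39.2 CPM and line 3 had 24.6 and 21.8 CPM, against 20.9, 22.0 and 24.5 CPM in WT. Lines 1 and 2 again lay above WT, and line 3 heavy only just exceeded the highest WT library.

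The SCN3A log2 fold changes were 0.45, 0.85 and 0.05 in lines 1, 2 and 3 (edgeR adjusted p = 0.000524, 1.69e-07 and 0.800), and without line 1 light the line 1 value was 0.27 (adjusted p = 0.105).

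SCN1A, a pore of inhibitory neurons whose loss causes Dravet syndrome, went the other way at a low level. Line 1 had 0.872 and 0.736 CPM, line 2 had 0.508 and 0.502 CPM and line 3 had 0.636 and 0.639 CPM, against 0.788, 0.915 and 1.16 CPM in WT. Only line 1 heavy reached into the WT range. The gene had 130 counts over the 6 KO libraries and 185 over the 6 WT libraries, and line 2 alone was called (log2 fold change -0.90, SE 0.26, edgeR adjusted p = 0.00941; adjusted p = 0.162 without line 2 heavy). The lines were not shown to differ for SCN1A (edgeR adjusted p = 0.269).

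SCN8A, the pore of mature nodes and axon initial segments, did not pass in any comparison. It averaged 20 ± 2.54 CPM in KO and 20.3 ± 0.872 CPM in WT (SD, n = 6 each), and the 95% interval of its log2 fold change over both media ran from -0.19 to 0.14. SCN11A, a pore of sensory neurons, had 0.480 to 0.903 CPM in KO and 0.329 to 0.823 CPM in WT, and its groups overlapped.

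**Figure D3:**
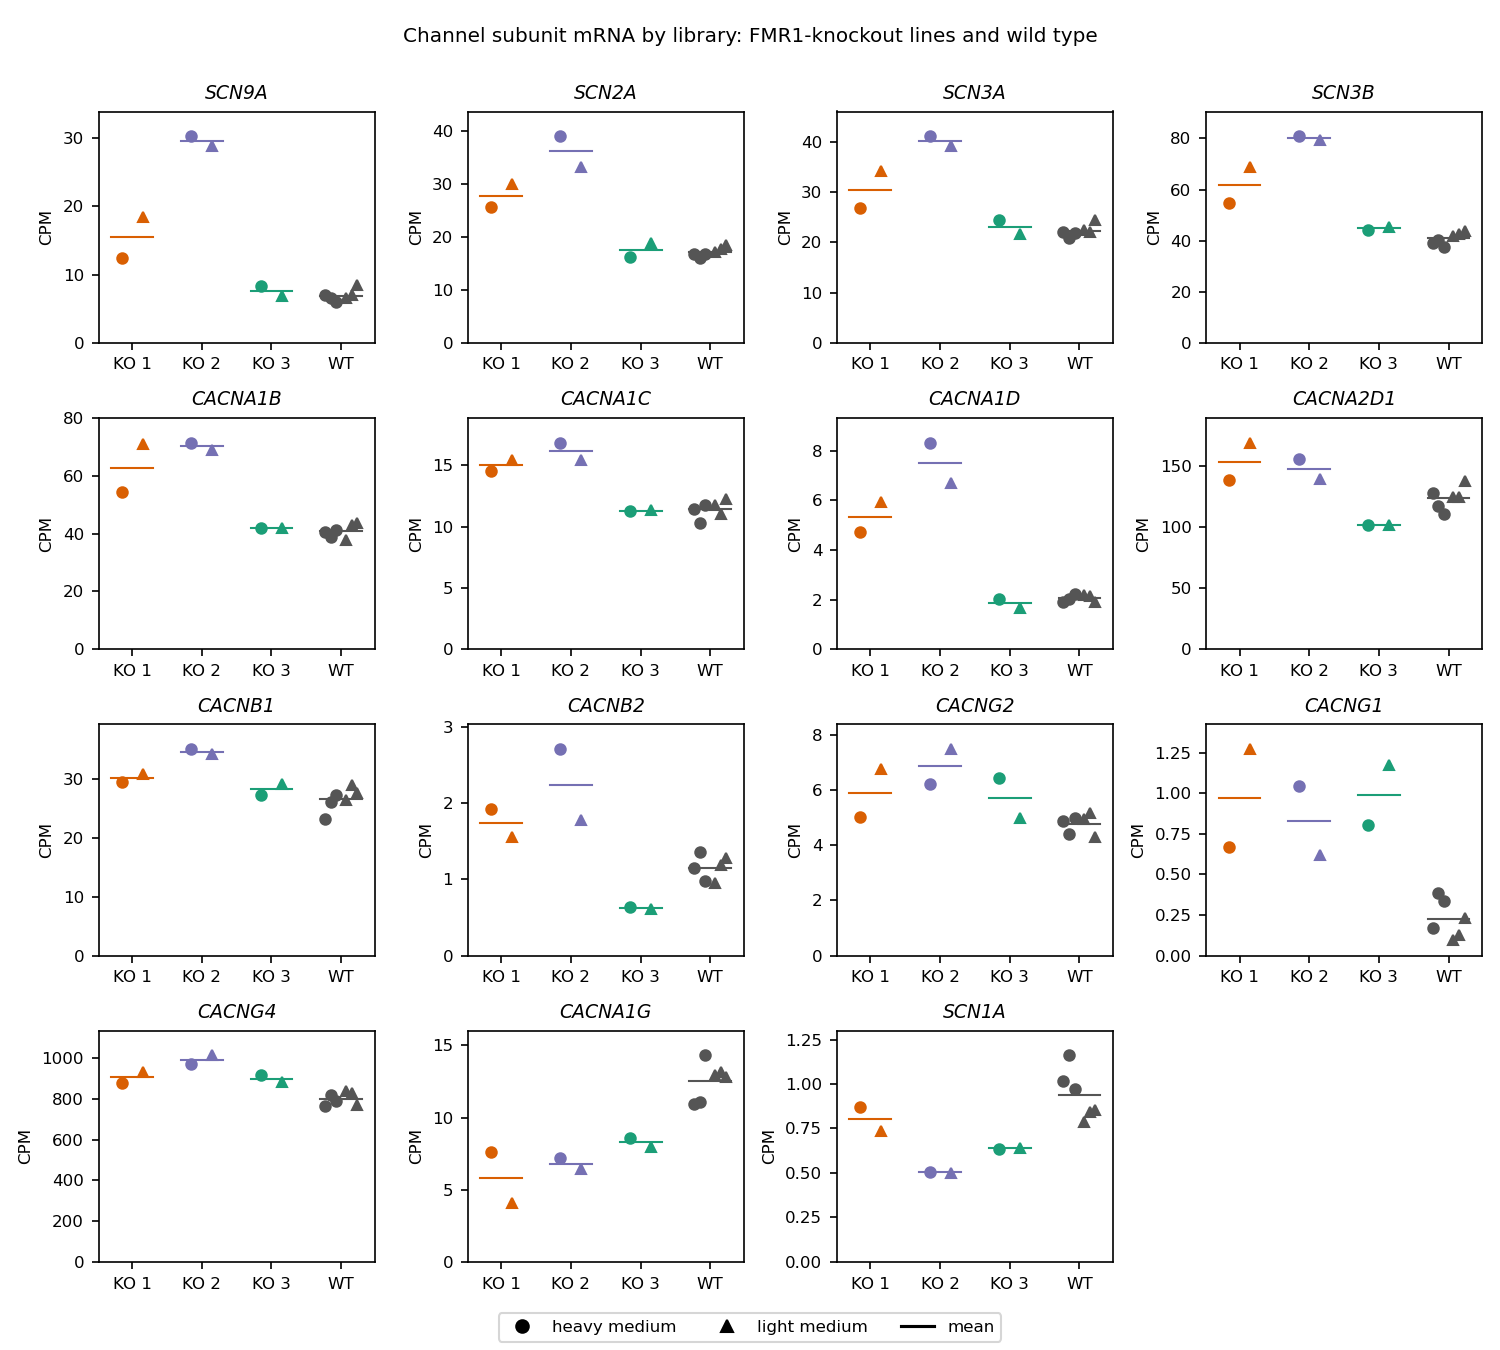
CPM of 15 channel genes in each library, one panel per gene, with KO lines 1 to 3 at left and WT at right, circles for heavy and triangles for light medium and a bar at each mean (2 libraries per line, 6 WT libraries). SCN9A, SCN2A, SCN3A and CACNA1D show lines 1 and 2 above WT with line 3 at the WT level, whereas all 3 lines stand above WT for CACNG1 and below it for CACNA1G.

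The pores SCN3A, SCN2A, SCN1A and SCN9A share a cluster on chromosome 2 (GRCh38, GENCODE release 29). SCN3A spans chr2:165087522-165204067 on the minus strand, SCN2A chr2:165194993-165392310 on the plus strand, SCN1A chr2:165984641-166149214 on the minus strand and SCN9A chr2:166195185-166376001 on the minus strand. Fold changes within the cluster were not uniform. SCN9A and SCN1A, the closest of these pores on the minus strand, went in opposite directions in line 2, at 2.10 and -0.90 on the log2 scale. CSRNP3, a transcription factor gene between SCN2A and SCN1A, had log2 fold changes of 0.29, 0.62 and 0.03 in lines 1, 2 and 3 (edgeR adjusted p = 0.0448, 0.000123 and 0.916), and TTC21B, a cilium gene next to SCN1A, had -0.07, 0.01 and 0.04 (adjusted p = 0.543, 0.901 and 0.812).

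Reads of the cluster are not always unique to a gene. The spans of SCN3A and SCN2A overlap at their starts. AC019197.1, on the strand opposite to SCN3A, covers 9.91% of SCN3A exon bases and averaged 0.0161 CPM in KO and 0 in WT. AC010127.1 covers 8.17% of SCN9A and 2.77% of SCN1A exon bases on the opposite strand. Of the 50-base words of the longest transcript, 5.55% in SCN3A, 3.85% in SCN2A, 3.70% in SCN9A and 2.11% in SCN1A occur in another channel gene, against at most 0.38% in any other member. How the counting treated strand and multi-mapping reads is not stated by the sources, and exchanges of reads between these genes were not tested.

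**Figure D4:**
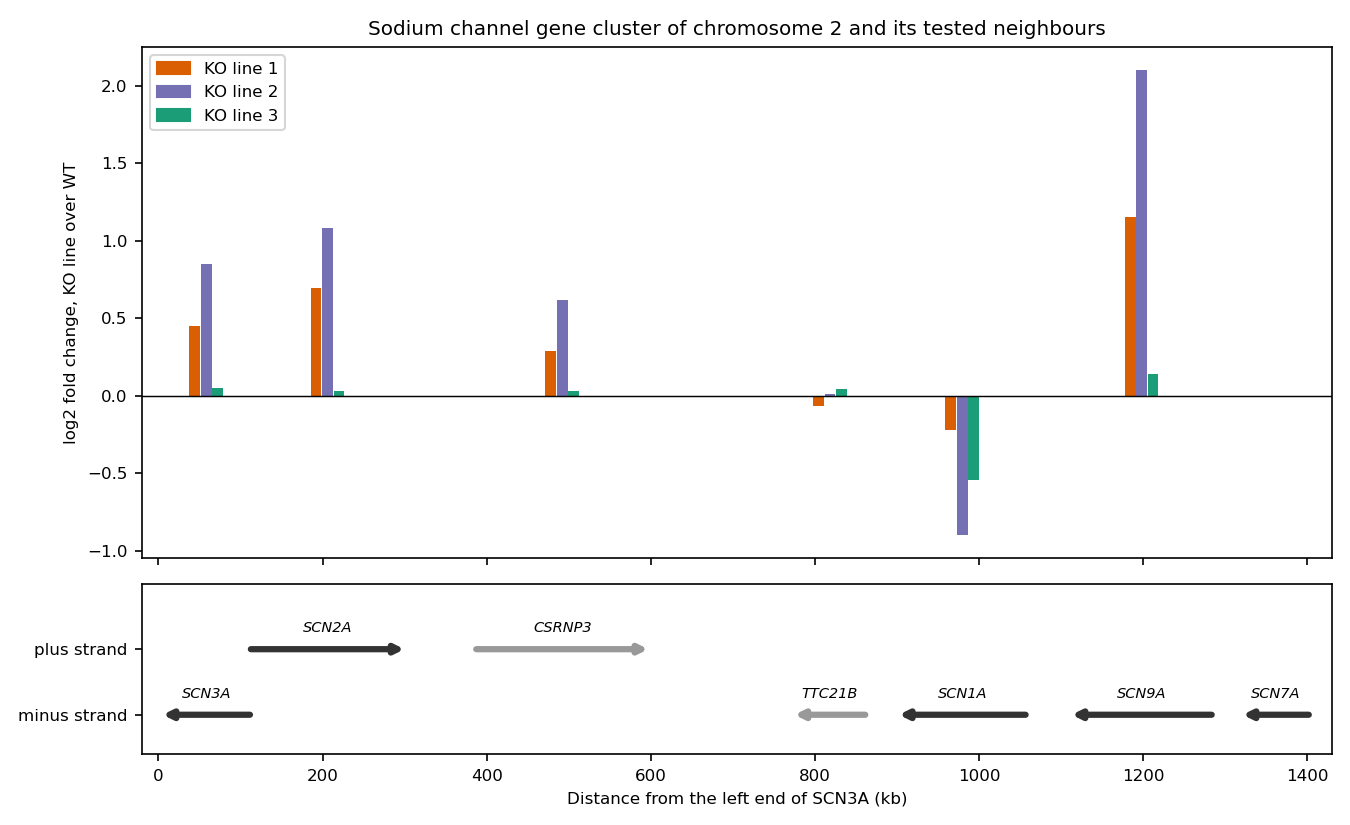
Log2 fold change over WT of each KO line (bars) for the tested genes of the chromosome 2 cluster, above a map of the genes to scale in kb from the left end of SCN3A, with arrows pointing along transcription. SCN9A has the tallest bars (1.16 and 2.10 in lines 1 and 2), SCN1A has bars below 0, and TTC21B lies near 0; SCN7A was below the filter.

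Of the sodium channel beta subunits, SCN3B, an auxiliary subunit of developing neurons, was called. It had 54.9 and 69.0 CPM in line 1, 80.9 and 79.5 CPM in line 2 and 44.3 and 45.4 CPM in line 3, against 37.3, 41.1 and 43.9 CPM in WT. All 6 KO libraries lay above all WT libraries, line 3 by the smallest margin. Log2 fold changes were 0.60 (SE 0.07), 0.98 (SE 0.06) and 0.14 (SE 0.07) in lines 1, 2 and 3, with edgeR adjusted p of 2.28e-06, 1.26e-09 and 0.294, and the lines differed (adjusted p = 3.76e-06). SCN2B and SCN4B had fewer than 2 CPM in every library and overlapped between genotypes. The line 3 values of SCN4B, 1.54 and 1.44 CPM, were the highest of the 12 libraries against 0.516 to 0.946 CPM in WT, and the difference did not pass (log2 fold change 0.89, edgeR adjusted p = 0.0918).

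Among the calcium channel pores, CACNA1D, an L-type channel that opens at low voltage in pacemaking and endocrine cells, differed most. It had 4.74 and 5.91 CPM in line 1, 8.32 and 6.68 CPM in line 2 and 2.01 and 1.68 CPM in line 3, against 1.89, 2.08 and 2.23 CPM in WT. Lines 1 and 2 were clear of WT, and line 3 light fell below the lowest WT library. The log2 fold changes were 1.36 (SE 0.14, edgeR adjusted p = 1.21e-06), 1.86 (SE 0.14, adjusted p = 6.10e-09) and -0.17 (SE 0.17, adjusted p = 0.645), and the difference among lines had an adjusted p of 1.58e-06.

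CACNA1B, the N-type pore of transmitter release and the most abundant alpha1 mRNA, followed the same order. Line 1 had 54.4 and 71.0 CPM, line 2 had 71.5 and 69.0 CPM and line 3 had 41.8 and 42.0 CPM, against 37.9, 41.0 and 43.7 CPM in WT. Line 3 sat inside the WT range while the other lines did not. Its log2 fold changes were 0.61, 0.78 and 0.03 in lines 1, 2 and 3 (edgeR adjusted p = 9.14e-06, 1.76e-07 and 0.868). CACNA1C, the L-type pore of heart, smooth muscle and brain, moved less, with 14.6 and 15.4 CPM in line 1, 16.8 and 15.4 CPM in line 2 and 11.2 and 11.3 CPM in line 3, against 10.3, 11.6 and 12.3 CPM in WT. This corresponds to 0.39, 0.50 and -0.02 on the log2 scale (edgeR adjusted p = 0.00225, 0.000135 and 0.948; line 1 without its light library, adjusted p = 0.0635).

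CACNA1G, a T-type pore that opens near the resting potential, was the only calcium channel pore that fell, and it was lower in all 3 lines. Line 1 had 7.59 and 4.07 CPM, line 2 had 7.17 and 6.41 CPM and line 3 had 8.60 and 7.99 CPM, against 11, 12.9 and 14.3 CPM in WT. No KO library reached the lowest WT library. The log2 fold changes were -1.12 (SE 0.17, edgeR adjusted p = 0.000150), -0.89 (SE 0.17, adjusted p = 0.000520) and -0.60 (SE 0.16, adjusted p = 0.0441), and a difference among lines was not shown (adjusted p = 0.173). In line 1 the value was -1.63 without the heavy library and -0.72 without the light one, both called. The line 3 call was lost in 8 of the 12 fits that left out a library, with adjusted p between 0.0661 and 0.325.

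The alpha2delta genes moved by small amounts, and the lines did not share a direction. CACNA2D1 had 138 and 169 CPM in line 1, 155 and 139 CPM in line 2 and 101 and 101 CPM in line 3, against 110.5, 124 and 138 CPM in WT. Both line 3 libraries were below every WT library, and line 1 light and line 2 heavy were well above all of them. Log2 fold changes were 0.31, 0.26 and -0.28 (edgeR adjusted p = 0.00431, 0.00981 and 0.0402), so the value over both media, 0.12, was not called (adjusted p = 0.510), while the test among lines was (adjusted p = 0.000248). These calls were lost without line 1 light (0.18, adjusted p = 0.243), without line 2 heavy (0.11, adjusted p = 0.446), and for line 3 in 5 of the 12 fits.

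CACNA2D2, the more abundant alpha2delta mRNA, had 205 and 237 CPM in line 1, 197 and 211 CPM in line 2 and 174 and 175 CPM in line 3, against 181, 189.9 and 202 CPM in WT. It was called in line 1 only (log2 fold change 0.21, edgeR adjusted p = 0.00394; 0.14 and adjusted p = 0.200 without line 1 light), with 0.10 and -0.13 in lines 2 and 3 (adjusted p = 0.130 and 0.175). The difference among lines passed (edgeR adjusted p = 0.00166).

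Of the 4 calcium channel beta subunits, 2 passed no test and 2 were called in at least 1 line. CACNB3, the leading beta mRNA, had 63.1 to 66.1 CPM in KO and 57.0 to 64.7 CPM in WT and passed no test (log2 fold change over both media 0.05, 95% interval -0.04 to 0.14). CACNB4, mutated in the lethargic mouse, had 5.10 to 6.57 CPM in KO and 5.52 to 6.46 CPM in WT, with an interval of -0.21 to 0.11. CACNB1, the beta subunit of skeletal muscle that neurons also make, had 29.5 and 30.8 CPM in line 1, 35.0 and 34.1 CPM in line 2 and 27.2 and 29.1 CPM in line 3, against 23.1, 26.8 and 28.9 CPM in WT. Lines 1 and 2 lay above the WT range and line 3 heavy within it, and line 2 alone was called (0.38, edgeR adjusted p = 0.000307).

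CACNB2, the cardiac beta subunit, was the gene with the widest spread of lines below 3 CPM. Line 1 had 1.92 and 1.56 CPM, line 2 had 2.71 and 1.78 CPM and line 3 had 0.636 and 0.613 CPM, against 0.953, 1.17 and 1.35 CPM in WT. Line 3 stood below the WT range and the other lines above it. Log2 fold changes were 0.59, 0.96 and -0.87 (edgeR adjusted p = 0.0381, 0.000729 and 0.0539), and the difference among lines passed (adjusted p = 0.000268). The line 1 call was lost without line 1 heavy (0.52, adjusted p = 0.202), without line 1 light (0.65, adjusted p = 0.169) and without WT heavy 1, WT heavy 3 or WT light 1 (adjusted p = 0.0609, 0.0721 and 0.0633), and the line 2 call without line 2 heavy (0.67, adjusted p = 0.10).

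Among gamma subunits, CACNG1 had the largest fold difference of all 27 genes over both media and was higher in each of the 3 lines, although SCN9A differed more in line 2. It is the gamma subunit of the skeletal muscle calcium channel and was rare here, with 189 counts over the 6 KO libraries and 44 over the 6 WT libraries. It passed the low-count filter through its KO libraries, as too few WT libraries reached the level of that filter. Its fold difference and calls are therefore not independent of the filter. Line 1 had 0.669 and 1.27 CPM, line 2 had 1.04 and 0.618 CPM and line 3 had 0.803 and 1.17 CPM, against 0.0986, 0.200 and 0.387 CPM in WT. All KO libraries exceeded all WT libraries. Log2 fold changes were 2.11 (SE 0.40), 1.91 (SE 0.42) and 2.15 (SE 0.40) in lines 1, 2 and 3, with edgeR adjusted p of 0.000590, 0.00121 and 0.00285 and no difference shown among lines (adjusted p = 0.903). Each line call was lost without 1 of its libraries, at adjusted p of 0.107 without line 1 light, 0.123 without line 2 heavy and 0.103 without line 3 light.

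CACNG4, the most abundant channel mRNA, lies beside CACNG1 on chromosome 17 (CACNG4 chr17:66964910-67033398 and CACNG1 chr17:67044590-67056797, both on the plus strand). It had 879.9 and 933 CPM in line 1, 969.6 and 1013 CPM in line 2 and 915 and 882 CPM in line 3, against 764, 805 and 839 CPM in WT. Each KO library exceeded each WT library by a modest margin. The log2 fold change over both media was 0.22 (SE 0.04, edgeR adjusted p = 0.00480), and by line it was 0.18, 0.31 and 0.17 (adjusted p = 0.0123, 6.46e-05 and 0.0653; line 1 without its light library, adjusted p = 0.188). The neighbours differed: CACNG5, before CACNG4 on the same strand, was not called (0.16, adjusted p = 0.636), PRKCA, a protein kinase C gene before it, was lower in KO (-1.0, adjusted p = 0.0244), and HELZ, after CACNG1, was not called (-0.09, adjusted p = 0.196).

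CACNG2, the AMPA-receptor subunit known as stargazin, had 5.03 and 6.76 CPM in line 1, 6.23 and 7.49 CPM in line 2 and 6.42 and 4.98 CPM in line 3, against 4.31, 4.92 and 5.17 CPM in WT. Line 1 heavy and line 3 light fell within the WT range. The call by line was limited to line 2 (0.51, edgeR adjusted p = 0.00587; 0.38 and adjusted p = 0.143 without line 2 light). CACNG7 and CACNG8, AMPA-receptor auxiliary subunits that are neighbours on chromosome 19, passed no test, with 75.1 to 90.5 CPM in KO and 74.1 to 92.1 CPM in WT for CACNG7 and 14.0 to 17.9 CPM in KO and 15.3 to 18.4 CPM in WT for CACNG8.

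Without the heavy library of line 1, which kept the most FMR1 mRNA, the line 1 differences were mostly larger. SCN9A stood at 1.41 on the log2 scale, CACNA1D at 1.58, CACNA1B at 0.79, SCN2A at 0.78, SCN3B at 0.72, SCN3A at 0.62 and CACNG1 at 2.7 (edgeR adjusted p between 8.89e-08 and 0.000127). CACNB2 was the exception among the called genes, at 0.52. Over the 27 genes the median log2 difference from the WT mean was 0.18 and 0.27 in line 1 (heavy, light), 0.57 and 0.31 in line 2 and 0.01 and -0.03 in line 3, against -0.03 to 0.03 in the WT libraries.

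**Figure D5:**
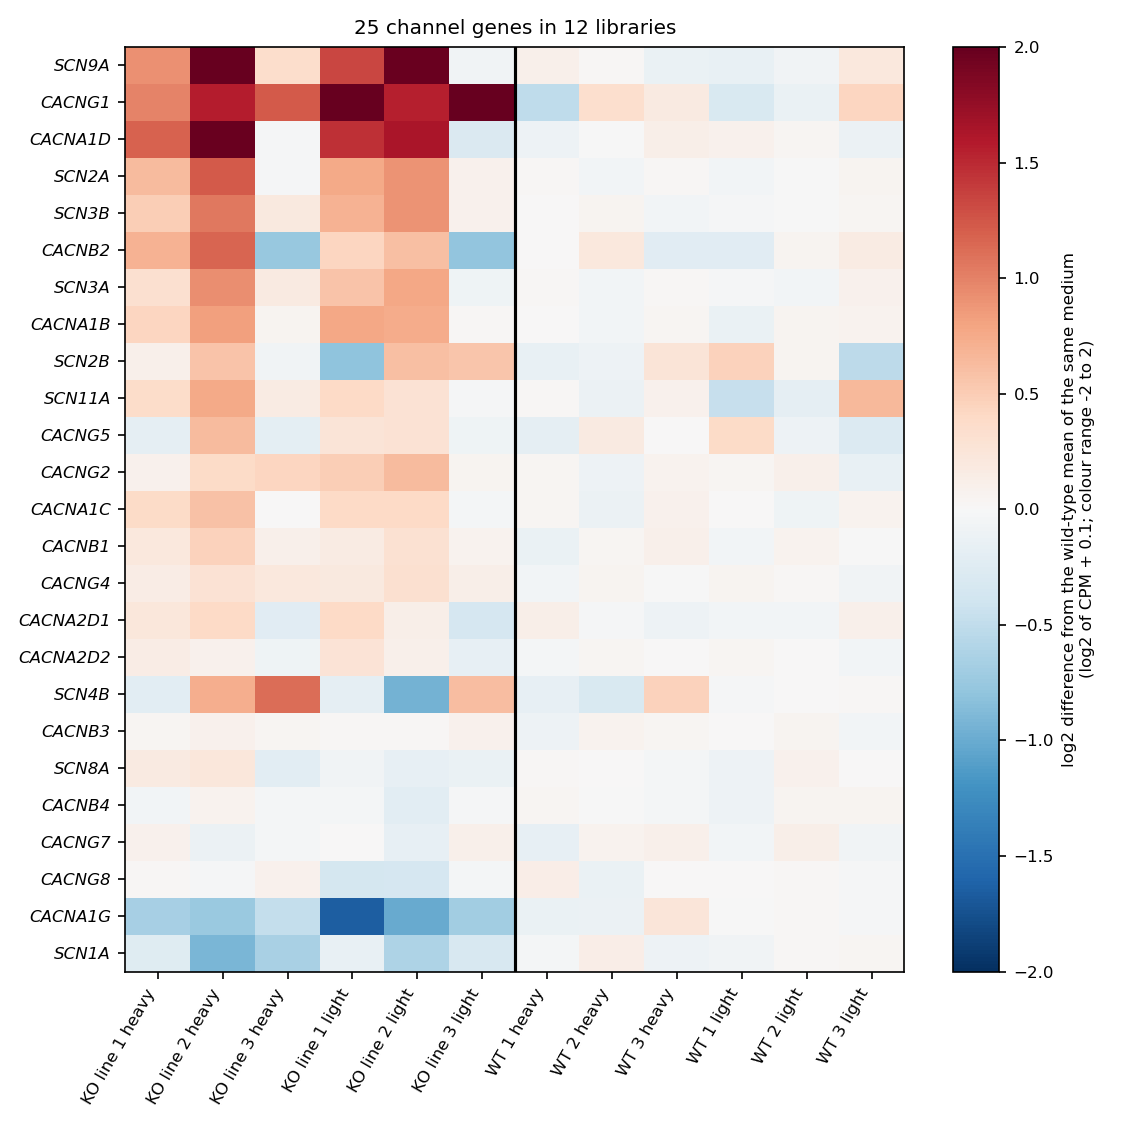
Log2 difference of each of 25 tested channel genes (rows) from the WT mean of the same medium in each of the 12 libraries (columns, KO left of WT), as log2 of CPM + 0.1 with the colour range limited to -2 and 2. Line 2 is the most coloured, line 3 is close to WT, and CACNG1 is red and CACNA1G blue across the KO columns.

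The medium left no call among these genes. Heavy against light medium, with each line and WT as a level of the model, called 0 of the 27 genes and 0% of all tested genes with edgeR, 2 channel genes (CACNA2D2 and SCN3B) having an unadjusted p below 0.05 against 1099 genes in all. Their log2 differences, heavy over light, were -0.10 and -0.13. The interaction of genotype and medium also called 0 channel genes and 0% of all tested genes, with 1 channel gene (CACNG1) and 149 genes in all at an unadjusted p below 0.05. DESeq2 and limma-voom called 0 channel genes in both. In heavy medium alone, with 3 KO against 3 WT libraries, 0 channel genes were called, and in light medium alone CACNG1 was. Shares of all tested genes called in these DESeq2, limma-voom and single-medium fits are not given here. Their low counts therefore cannot be read as particular to the channel genes.

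Partner genes of the channels were listed by role. Of 17 tested sodium channel partners (ankyrins, contactins, calmodulins, fibroblast growth factor homologous factors and adhesion proteins), 7 were higher and 0 lower in KO over both media, with a median log2 fold change of 0.26, where 15% of all tested genes were higher and 9.78% lower. NRCAM, a cell adhesion molecule that gathers sodium channels at nodes, averaged 313 ± 34.7 CPM in KO and 215 ± 17.7 CPM in WT (SD, n = 6 each) and was called in each line (0.38, 0.69 and 0.53; edgeR adjusted p = 0.00141, 2.08e-06 and 0.000444). CNTN2, a contactin of axons, averaged 19.2 ± 5.29 CPM in KO and 11.6 ± 0.931 CPM in WT, with 0.74, 1.10 and 0.22 by line, the last not called (adjusted p = 0.228). The calmodulin gene CALM2 (0.26 over both media) was also higher, and by line 9, 13 and 1 partners were higher (15.4%, 22.9% and 3.27% of all tested genes) and 2, 1 and 0 lower (12.8%, 20.1% and 1.73% of all) in lines 1, 2 and 3.

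Of 18 tested calcium channel regulators, 6 were higher and 2 lower over both media, the lower share being near the 9.78% of all tested genes and the higher one standing beside 15% of all. RIMS1, a presynaptic scaffold that tethers calcium channels to vesicles, was higher in each line (0.54, 0.53 and 0.55; edgeR adjusted p = 0.00782, 0.00585 and 0.0283), with 7.41 ± 0.771 CPM in KO and 5.10 ± 0.725 CPM in WT (SD, n = 6 each). AKAP6, an anchor of protein kinase A, and DPYSL2, which binds the N-type channel, were higher (0.53 and 0.20), and CACHD1, an alpha2delta-like protein, was lower (-0.55 over both media; -0.59, -0.92 and -0.22 by line, the last not called at adjusted p = 0.179). Among 9 tested related cation channel genes, 1 was higher and 0 lower over both media, where 15% and 9.78% of all tested genes were. It was UNC79, a subunit of the sodium leak channel complex (0.17, edgeR adjusted p = 0.00856). In lines 1, 2 and 3, 4, 3 and 0 of the 9 were higher (15.4%, 22.9% and 3.27% of all). In the same order, 0, 3 and 0 were lower (12.8%, 20.1% and 1.73% of all).

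Genes that move or store calcium formed another list. Of 24 tested, 15 were higher and 2 lower over both media (15% and 9.78% of all tested genes), with a median log2 fold change of 0.33. The plasma membrane calcium pump genes ATP2B2 and ATP2B3 averaged 16.1 ± 2.66 and 39.4 ± 17.2 CPM in KO and 9.48 ± 0.668 and 12.7 ± 0.747 CPM in WT (SD, n = 6 each). Both were called in every line, ATP2B2 at 0.68, 1.02 and 0.54 and ATP2B3 at 1.74, 2.14 and 0.64. SLC8A3, a sodium-calcium exchanger, averaged 44.6 ± 22.9 CPM in KO and 10.2 ± 0.759 CPM in WT and was called in every line (2.13, 2.75 and 1.02; edgeR adjusted p = 9.68e-07, 3.03e-08 and 0.00316), and ITPR2, an IP3 receptor of the endoplasmic reticulum, was lower in every line (-0.80, -1.02 and -0.73; adjusted p = 0.00157, 0.000147 and 0.0145).

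REST, a repressor of neuronal genes for which SCN2A is a standard target, and the proteins it works with were listed as well. Of these 7 genes, 1 was higher and 4 were lower over both media (15% and 9.78% of all tested genes), and in line 3, where 3.27% of all tested genes were higher and 1.73% lower, none was called. REST averaged 15.5 ± 2.27 CPM in KO and 19.5 ± 2.26 CPM in WT (SD, n = 6 each), with log2 fold changes of -0.37, -0.49 and -0.17 in lines 1, 2 and 3 (edgeR adjusted p = 0.00616, 0.000422 and 0.351). RCOR2, a corepressor, had -0.64, -1.10 and -0.15 (adjusted p = 0.000299, 1.23e-06 and 0.449), and the deacetylase genes HDAC1 and HDAC2 had -0.17 and -0.21 over both media. Whether these levels bear on the channel genes was not tested.

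Markers of other cell types were counted beside the same shares of all tested genes, 15% higher and 9.78% lower over both media; by line, 15.4%, 22.9% and 3.27% were higher, whereas 12.8%, 20.1% and 1.73% were lower. Of 4 tested glial or Schwann markers (of 8 listed), 3 (PMP22, ERBB3 and S100B) were higher over both media and in lines 1 and 2, and 1 was in line 3, with a summed level of 11.6 to 36.7 CPM in KO and 7.86 to 9.32 CPM in WT, while SOX10, GFAP and FABP7 were at 0 in every library. Of 10 tested mesenchymal markers, 2 were higher and 2 lower over both media, and 6 and 7 were lower in lines 1 and 2 against 1 in line 3, with a summed level of 239 to 362 CPM in KO and 389 to 414 CPM in WT. Of 13 adrenergic markers, 2 were higher and 3 lower over both media, and 3, 3 and 1 were higher and 5, 7 and 2 lower in lines 1, 2 and 3, the counts of higher markers over both media and in line 2 being near those shares. Of 7 muscle markers, relevant to CACNG1, 2 were tested and 1 (RYR1) was higher, with a summed level of 1.07 to 2.94 CPM in KO and 0.953 to 1.2 CPM in WT. The part of these in the channel results was not tested.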

How the data were processed

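The authors deposited 1 table of raw, unnormalised read counts for all genes of the 12 libraries. Stranded poly(A) libraries were made with a TruSeq kit, per the labels' protocols. Per the submitters' processing notes, bcl2fastq 2.19.0, STAR 2.7.0f, Subread 1.6.4 (featureCounts), DESeq2 1.22.1 and R 3.5.1 were used with GRCh38.p13. The sources do not state the annotation release or how the counting handled strand and multi-mapping reads. No row was a total or unassigned class.

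The untransformed counts went into edgeR 4.0.16 (R 4.3.3), with TMM factors, filterByExpr over the 4 groups (16704 genes kept), robust quasi-likelihood F tests and Benjamini-Hochberg adjustment over all tested genes at 0.05. The fit over both media had genotype and medium; the fit by line had WT and lines 1 to 3 as a 4-level factor and medium, with 1 spread shared by all libraries, since a line has 2; the interaction had its own fit. CPM were computed here from TMM-scaled library sizes and divided, for comparisons between genes, by the union exon length of GENCODE release 29; SE were derived from the F statistic. Genes called over both media or in at least 2 lines are given by every KO library and the lowest, median and highest WT value. The leading gene of a class is given in the same way, except CACNB3, which is given by range. Up to 4 called genes are named per list.

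The subunit set and the gene lists were chosen with earlier results of these data known, so that no list is independent support. Counts and summed levels cover all members, some of which are not reported singly here. Alternatives were RLE factors, DESeq2 1.42.0, limma-voom (limma 3.58.1), no filter, a filter of 1 CPM in 3 or more libraries, each library or line left out, single media, counts summed per line, only 1 line with WT, and the number as a block. The labels give the same line to KO libraries of the same number, and their deviations from group means correlated at 0.099, 0.633 and 0.672 across media. KO libraries of different numbers correlated at -0.733 to 0.414 across media. Line 2 heavy with line 1 light (0.414) and line 1 heavy with line 3 light (0.163) exceeded the 0.099 of line 1. The remaining pairs of different numbers were negative.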

Additional observations from a re-analysis of the deposited data

Results flagged for a closer look

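The level of 11 channel genes differed among the 3 KO lines when their equality was tested with edgeR, with line 3 the lowest of the 3 in each. Adjusted p-values of the difference included 7.7e-07 for SCN9A, 1.58e-06 for CACNA1D, 3.76e-06 for SCN3B, 4.05e-06 for SCN2A, 4.95e-05 for CACNA1B and 7.76e-05 for SCN3A. Others were 0.000248 for CACNA2D1, 0.000268 for CACNB2, 0.00166 for CACNA2D2 and 0.0042 for CACNA1C. For CACNA1C, CACNA1D, CACNA2D1, CACNA2D2 and CACNB2, line 3 lay on the other side of WT from lines 1 and 2, and of these line 3 values CACNA2D1 alone was called. CACNB4 had 1 WT library, light 1, at 5.52 CPM, below the other 5 WT libraries by 0.628 of the WT range on the scale of log2 of CPM + 0.1, a gap that chance gives in about 1 group in 20 of those examined.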

How the results depend on the processing

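Of the 27 tested channel genes, 14 were called over both media, and RLE factors (14), DESeq2 (13), at least 1 CPM in at least 3 libraries (13) and leaving out line 3 (16) gave similar counts. The count was 9 with limma-voom, 9 with no low-count filter, 5 without line 1, 5 without line 2, 2 on counts summed per line, 0 in heavy and 1 in light medium alone, and 5 to 14 with each library left out. For line 3 it was 6 with no filter, 5 with only that line and WT, and 0 to 5 with a library left out, against 6 to 14 in line 1, 12 to 17 in line 2, 11 to 13 among lines and 0 to 0 for medium and interaction. Without line 2, fold changes over both media were smaller by more than 1.5 times for genes that included SCN9A (0.73), SCN2A (0.39), SCN3A (0.26), SCN3B (0.38), CACNA1C (0.20), CACNA1D (0.79) and CACNB1 (0.13); the cause of this and of the other losses was not tested. No called gene changed direction. Shares of all tested genes called in these alternative fits are not given here. Falls in the counts therefore cannot be read as particular to the channel genes. With the replicate number as a block the count over both media was 14 and the medium and interaction counts were 0; KO and WT libraries of the same number correlated at -0.157 to 0.014, so the block pairs nothing stated. The rare genes CACNG1 and SCN1A rest on 44 to 189 counts per genotype.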

Other observations

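Further genes of the partner lists, chosen after their values were seen, were called in lines 1 and 2 and not in line 3. FGF14, a fibroblast growth factor homologous factor that binds sodium channels at the axon initial segment, averaged 42.0 ± 19.7 CPM in KO and 18.5 ± 1.96 CPM in WT (SD, n = 6 each), with log2 fold changes of 1.41, 1.65 and 0.04 in lines 1, 2 and 3 (edgeR adjusted p = 1.90e-07, 1.18e-08 and 0.886). ANK2, an ankyrin that anchors channels and exchangers to the membrane skeleton, averaged 122 ± 47.8 CPM in KO and 65.4 ± 5.38 CPM in WT, with 1.05, 1.33 and 0.02 by line (edgeR adjusted p = 8.76e-06, 3.31e-07 and 0.955). The ryanodine receptor genes RYR1 and RYR2, whose products release stored calcium in muscle and neurons, were called over both media. RYR2 averaged 1.85 ± 1.11 CPM in KO and 0.408 ± 0.155 CPM in WT, with 2.55, 2.74 and 0.21 by line (edgeR adjusted p = 3.47e-06, 5.41e-07 and 0.839). RYR1 had 1.68, 1.17 and 0.39 by line, and RYR3 had 2.23 (SE 0.51), 1.95 (SE 0.55) and 0.27. Line 3 was called in neither (edgeR adjusted p = 0.535 for RYR1 and 0.885 for RYR3). RYR3 was rare, averaging 0.288 ± 0.165 CPM in KO and 0.0836 ± 0.0605 CPM in WT. It was also called over both media, but it passed the low-count filter only through KO libraries of lines 1 and 2. The highest WT library had 0.195 CPM, so the RYR3 calls are not independent of that filter.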
